A study of Mus musculus with 12 samples.

Results

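The data described are the 6 retina arrays of a study of form-deprivation myopia in mice, with 3 pools of form-deprived (myopic) retinas and 3 pools of control retinas. Of the 12 arrays in the series, these 6 were chosen by their sample titles. Of the 696 mouse miRNA names on the array, the 418 detected in at least 1 of these 6 pools are the members described, and 329 of them were detected in all 6 pools. The study asked which miRNAs of the retina and sclera differ between eyes with and without form deprivation. The mice were C57BL/6J and were 24 days old at the start. In the myopic group a frosted plastic diffuser was worn over the right eye for 10 days, and the retinas were dissected at 34 days of age. The control group held the untreated left eyes of the treated mice, so that both groups come from the same animals. Per the labels, pools with the same number are the left and right eyes of the same mice, and the series holds no eyes of untreated mice. Each pool contained the retinas of 3 eyes and was hybridized to 1 array, which averages animals and hides differences between them. The sample labels speak of single mice where the study's methods speak of pools. The retina was taken whole, and its cell types were not separated.

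A miRNA is cut from a hairpin precursor whose 2 arms each can give a mature strand, named 5p or 3p after the arm, and usually only 1 of them accumulates. The seed, bases 2 to 8 of the mature strand, pairs with target mRNAs, so that miRNAs with a common seed share many targets. Retinal neurons are known for miR-124 and miR-9, photoreceptors for the cluster of miR-183, miR-96 and miR-182, and the pigment epithelium for miR-204 and miR-211. Names are given without the prefix for the mouse.

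The mature sequences that the results turn on are printed 5' to 3' from RefSeq (GRCm38.p6), with the seed in capitals. An entry was matched to 309 of the 418 members. The sequences of 4 hairpins come first, since their arms had different patterns across the pools, and the arm that varied stands above the arm that did not. No entry was matched to miR-21-3p, miR-467b-3p or miR-467e-3p, which does not show that RefSeq lacks them.
miR-101a-5p: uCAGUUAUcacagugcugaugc
miR-101a-3p: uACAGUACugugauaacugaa
miR-338-5p: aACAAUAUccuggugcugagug
miR-338-3p: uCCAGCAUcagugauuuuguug
miR-15a-3p: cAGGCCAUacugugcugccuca
miR-15a-5p: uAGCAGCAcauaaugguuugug
let-7d-3p: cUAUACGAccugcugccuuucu
let-7d-5p: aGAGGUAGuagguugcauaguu

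Some seeds were shared by a variable miRNA and another detected one, and these miRNAs are grouped by seed. The seed GGCAGUG belongs to the miR-34 and miR-449 family, UAUACAA to 3p arms of let-7 and UGGGAGA to 3p arms of miR-30c. AAGUGCU belongs to the miR-290 to miR-295 and miR-302 clusters of embryonic stem cells and AAGGUGC to miR-18. AAUACUG is the seed of miR-200b-3p and miR-429-3p, of the miR-200 family of epithelia. In each group the variable members stand first.
miR-449c-5p: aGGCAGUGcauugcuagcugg
miR-449a-5p: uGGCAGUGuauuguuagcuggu
miR-34a-5p: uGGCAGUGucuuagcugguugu
miR-34b-5p: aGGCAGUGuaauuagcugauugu
let-7a-1-3p: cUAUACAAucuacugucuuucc
let-7b-3p: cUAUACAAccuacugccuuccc
let-7f-1-3p: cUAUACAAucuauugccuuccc
miR-30c-1-3p: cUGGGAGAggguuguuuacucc
miR-30c-2-3p: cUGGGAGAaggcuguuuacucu
miR-291a-3p: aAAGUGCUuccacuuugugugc
miR-294-3p: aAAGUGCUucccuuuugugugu
miR-302b-3p: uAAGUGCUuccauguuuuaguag
miR-18b-5p: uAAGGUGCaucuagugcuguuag
miR-18a-5p: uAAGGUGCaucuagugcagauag
miR-429-3p: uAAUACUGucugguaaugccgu
miR-200b-3p: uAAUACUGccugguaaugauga

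A further 3 variable miRNAs are shown for their repeats of U and G, a feature that many of the variable miRNAs had in common.
miR-1187: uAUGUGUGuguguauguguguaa
miR-574-5p: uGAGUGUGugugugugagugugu
miR-669n: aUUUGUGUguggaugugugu

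On these arrays the image analysis software adds up the intensities of the detected probes of a miRNA into a total signal, and a probe counts as detected when its signal is above 3 times its error. The numbers of miRNAs detected were 372, 362 and 353 in control pools 1, 2 and 3, and 399, 401 and 376 in myopic pools 1, 2 and 3. The total signal of all miRNAs was 611247, 629329 and 715539 in the control pools, and it was 684690, 832754 and 591576 in the myopic pools, where myopic pool 2 was the highest of the 6 and myopic pool 3 the lowest. Sizes of change are given as log2 differences of the group means after scaling, for which every array was divided by its own 75th percentile (taken from miRNAs that all 12 arrays detected). Tests were made with limma on quantile-normalized log2 values of all 12 arrays, with p-values adjusted by the Benjamini-Hochberg procedure over 443 miRNAs, and a miRNA is called if its adjusted p is under 0.05 and it differs 2-fold or more. The difference between these scales matters, because the median change of the 329 miRNAs was -0.22 after quantile normalization, also -0.22 in the authors' deposited values, and -0.02 after scaling. A change is therefore read against these medians. Standard errors come from the fit of all 12 arrays, sclera included. P-values set a difference against the spread between pools, and their precision is limited by how many arrays there are. In this fit the pools of fellow eyes were treated as unpaired.

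The pools carried the miRNAs that define retina, and most of these had scaled changes near 0. For miR-124-3p, the neuronal miRNA with the brightest signal of its list, the signals were 91030, 93440 and 106557 in control pools 1 to 3, and 105019, 123784 and 87155 in myopic pools 1 to 3. The groups overlapped and the scaled change was 0.00 (SD 0.08 in the control and 0.07 in the myopic pools, n = 3). All 4 members of the photoreceptor and sensory cluster on the array were detected in every pool, with scaled changes from -0.00 to 0.01. Among 13 neuron-enriched miRNAs on the array, 11 were detected, and their scaled median was -0.01. The pigment cell markers miR-204-5p and miR-211-5p had scaled changes of -0.19 and -0.04. The endothelial miR-126-3p and miR-126-5p were at -0.09 and -0.10 after scaling, and at -0.01 and -1.07 after quantile normalization. The miR-29, miR-181 and let-7 families had scaled medians of 0.00, -0.00 and -0.02. The scaled change of miR-132-3p, which neuronal activity induces, was -0.06, and that of miR-212-3p of the same list was -0.19. In the Dlk1-Dio3 imprinted domain, which is active in neurons, 52 of 75 miRNAs were detected and their scaled median was 0.00. On the quantile scale the median of the 46 detected in all 6 pools was -0.38, with 42 of the 46 lower. Some members of 2 of these lists belonged to the variable group described below, 2 in let-7 and 3 in Dlk1-Dio3. Of the miRNAs of these lists, 0 were called, where 1 of all 443 miRNAs tested was (0.226%). Without control pool 1, 9 Dlk1-Dio3, 1 let-7 and 1 endothelial miRNA were called, where 27.6% of all miRNAs tested were. The medians of these lists followed the scaling, from -0.35 to 0.11 for the photoreceptor cluster across the scalings tried. The sign of so small a median thus depends on the scale.

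Most of the 329 miRNAs detected in all 6 pools stayed close to a change of 0 after scaling. The scaled change was within 0.2 of 0 for 244 of them (74.2%) and within 0.5 for 276, which are called steady below. A 2-fold higher mean in the myopic retina was found for 37 (11.2%), and a 2-fold lower mean for 0. This one-sided split depends on the scale, since after quantile normalization 28 were 2-fold higher and 28 were 2-fold lower, and 233 of the 329 were below 0. The highest scaled change was 3.23 and the lowest -0.75. The values on either side of the 2-fold limit were 0.99 and 1.04. Where arrays are ordered along the main axis of their differences, this axis held 90.4% of the variance of the 329 miRNAs. Its scores were 0.39, -0.48 and -0.97 for control pools 1 to 3 and 0.41, 0.46 and 0.20 for myopic pools 1 to 3, so that control pool 1 lay among the myopic pools. The axis held 89.1% after quantile normalization and 89.0% in the deposited values.

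**Figure D1:**
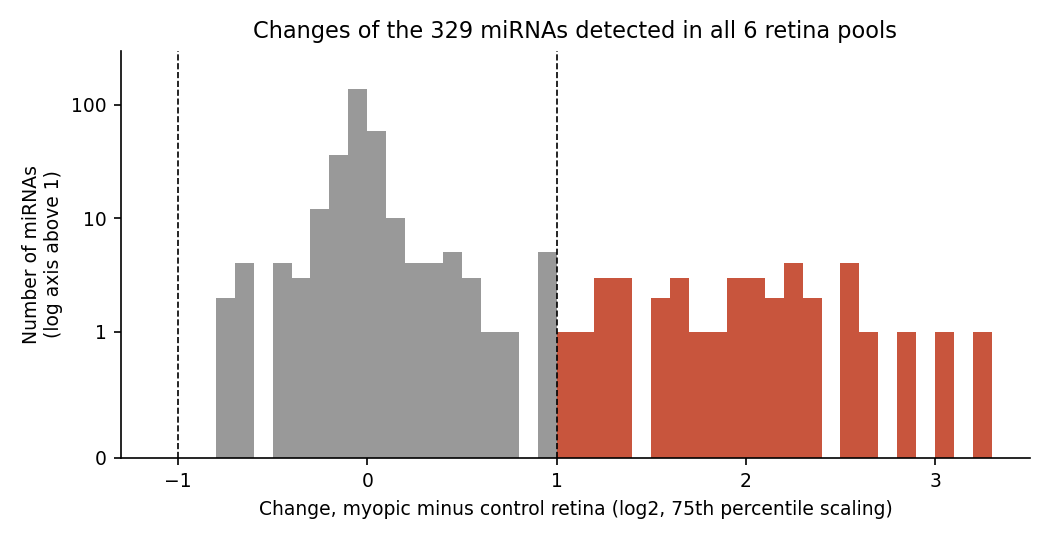
Histogram of the change between the myopic and the control retina (log2, 75th percentile scaling) for the 329 miRNAs detected in all 6 pools, with the number of miRNAs on the vertical axis (log scale above 1). Dashed lines mark 2-fold changes, and the 37 miRNAs in red lie beyond the upper line while 0 lie beyond the lower.

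The same pattern was seen in detection. Of the 89 miRNAs detected in some of the 6 pools, 72 were detected in more myopic than control pools, 9 in fewer and 8 in as many. A common pattern was detection in all myopic pools and control pool 1 alone (19 miRNAs), followed by all myopic pools with control pools 1 and 2 (16). Another 9 were detected in myopic pool 2 alone, 8 in myopic pools 1 and 2, 6 in control pool 3 alone, and 6 in every pool but control pool 1. The mean number detected was 362 in the control and 392 in the myopic pools (n = 3), a difference of 29.7 with p = 0.1 in a two-sided exact permutation test over pools, for which 0.1 is the smallest value possible. Within the pairs of fellow eyes the differences were 27, 39 and 23, and an exact permutation test within pairs, added after the data were seen, gave p = 0.25, also its smallest value. Every myopic pool was above every control pool, while the margin between control pool 1 and myopic pool 3 was small.

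The 37 miRNAs and the 19 and 16 set apart by detection form a group of 72 (17.2% of 418), here called variable. This group was chosen after the values were seen and was not tested as a group. Its median signal was 91.5, 10.4 and 3.63 in control pools 1, 2 and 3, and 115, 183 and 67.9 in myopic pools 1, 2 and 3. Control pool 1 was near the myopic pools, and control pools 2 and 3 were low. The choice itself fixes the absence from control pools 2 and 3 for the 19 miRNAs and from control pool 3 for the 16. The median of the steady miRNAs was 7.05, 7.17 and 7.28 (scaled log2) in the control pools and 7.13, 7.21 and 7.16 in the myopic pools. Together the variable miRNAs made up 1.93%, 0.341% and 0.125% of the total signal in the control pools and 2.05%, 2.27% and 1.47% in the myopic pools. They were above the lowest myopic pool, or level with it, in control pool 1 for 57 of the 72, and every myopic pool was above every control pool for 15. That separation was found for 20 of all 418 members (4.78%), and the reverse for 4 (0.957%). Myopic pool 2 was the highest of the 6 pools for 59 of the 72 and myopic pool 3 the lowest of the myopic pools for 71.

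**Figure D2:**
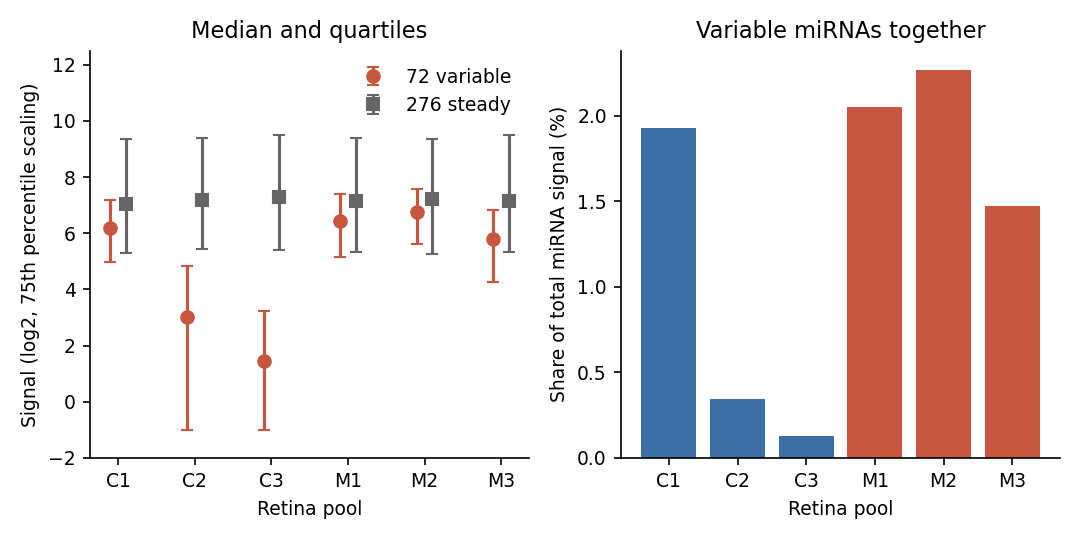
Left, median and quartiles (bars) of the scaled log2 signal of the 72 variable and the 276 steady miRNAs in control pools (C1 to C3) and myopic pools (M1 to M3) of retina, with undetected miRNAs at the floor of -1. Right, share of the total miRNA signal held by the variable miRNAs, which was 1.93% in C1, 0.341% in C2 and 0.125% in C3 (blue) and 1.47% to 2.27% in the myopic pools (red).

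For the 37 variable miRNAs detected in all 6 pools, the size of the difference depended on the control pool. The mean of the myopic pools exceeded control pool 3 by a median of 3.70 (scaled log2, range 1.74 to 5.56), control pool 2 by 2.33 and control pool 1 by 0.10 (range -0.47 to 1.28). Arrays of the same pool number, which are fellow eyes, shared a slide, and within the slides the median difference was 0.21, 2.72 and 3.05. It was 0.02, -0.01 and -0.09 for the steady miRNAs. Control pool 3 was the lowest of the 6 pools for 36 of the 37. The median change was 2.02 after scaling, 1.52 after quantile normalization, 1.64 in the deposited values and 0.25 with normexp background correction. That correction adds 50 to every signal, which shrinks the changes of dim miRNAs. A higher myopic mean of these 37 was fixed by their choice.

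In the fit of all 4 groups, 0 of the 72 variable miRNAs were called, with adjusted p-values from 0.134 to 0.903 (limma), against 1 of all 443 miRNAs tested (0.226%). At an unadjusted p under 0.05 and a fold change of 2, 58 miRNAs were higher (13.1%) and 20 lower (4.51%). Without control pool 1, limma called 66 miRNAs higher (14.9%) and 56 lower (12.7%). With scaling in place of quantile normalization, the fit without control pool 1 called 70 higher (15.8%) and 2 lower (0.452%). Of the 72 variable miRNAs, 63 were called without control pool 1, where 27.6% of all miRNAs tested were. In the scaled fit without that pool, 66 of them were called, where 16.3% of all were. The variable miRNAs were chosen by their values in these same pools, so that these counts depend on the choice and test nothing. Without myopic pool 3 there were 13 calls (2.93%), 9 of them higher (2.03%). With array weights, 83 were called higher (18.7%) and 63 lower (14.2%). With control pools 2 and 3 left out there were 5 calls (1.13%), 3 of them higher (0.68%), but this leaves 1 control pool, and the spread in that fit comes from the other groups. This fit and the scaled fit without control pool 1 were added after the data were seen.

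Arms of the same hairpin differed in whether they varied. Of 68 hairpins with both arms detected, 54 had no variable arm, 3 had both and 11 had 1. In 9 of these 11 the other arm was steady, with scaled changes of -0.10 to 0.14. The variable arms of 4 of them were detected in all 6 pools and had scaled changes of 1.21 to 2.86, while those of the others stood at the floor in at least 1 control pool. In the 9 hairpins the variable arm was the 3p arm in 7 and the 5p arm in 2. In 35 hairpins both arms were steady. The examples miR-15a, miR-485, miR-467e and miR-99b were chosen after their values were seen.

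The hairpin of miR-101a, whose 3p strand represses the chromatin enzyme Ezh2, had both arms detected in all 6 pools. The signals of miR-101a-5p were 66.2, 11.1 and 3.63 in control pools 1 to 3 and 115, 162 and 67.5 in myopic pools 1 to 3. It was lowest in control pool 3, and control pool 1 was just under myopic pool 3, so that the groups were separate by a small margin. Its quantile-normalized change was 2.15 (standard error 0.62, adjusted p = 0.134, higher on 3 of 3 slides). On the same arrays the signals of miR-101a-3p were 946, 1096 and 1235 in the control pools and 1036, 1402 and 1035 in the myopic pools, with a scaled change of -0.03 against 2.86 for the other arm. The 3p strand thus overlapped between the groups, and it was highest in myopic pool 2, the array with the brightest 75th percentile.

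For miR-338, an oligodendrocyte miRNA, the 5p strand had signals of 123, 34.5 and 14.1 in the control and 209, 277 and 131 in the myopic pools. The 3p strand had 780, 860 and 959 in the control and 845, 1071 and 875 in the myopic pools. Control pool 1 was just under myopic pool 3 in the 5p strand, while the groups overlapped in the 3p strand. The scaled changes were 2.22 and -0.01, and the quantile-normalized change of the 5p strand was 1.61 (standard error 0.45, adjusted p = 0.134). For let-7d, a member of the family that accumulates as neurons mature, the 3p strand had 40.2, 8.96 and 5.18 in the control and 56.1, 102 and 33.8 in the myopic pools. Control pool 1 here lay between the myopic pools, so that the groups overlapped. The 5p strand had 6098, 6793 and 7709 in the control and 6753, 9012 and 6163 in the myopic pools, and the scaled changes of the strands were 2.12 and -0.03.

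The 3p strand of miR-15a, a repressor of Bcl2, was at 135 and 25.1 in control pools 1 and 2, undetected in control pool 3, and at 204, 287 and 128 in the myopic pools. Its 5p strand was at 2427, 2824 and 3722 in the control and 3017, 4085 and 2536 in the myopic pools. The 3p strand of miR-21, which growth signals induce, was at 25.6 and 3.67 in control pools 1 and 2, undetected in control pool 3, and at 53.7, 78.3 and 24.4 in the myopic pools. Its 5p strand was at 2126, 2393 and 3172 in the control and 2532, 3333 and 2222 in the myopic pools. In both hairpins control pool 3, where the 3p strand was missing, had the highest 5p signal but for myopic pool 2. The scaled changes of the 5p strands were -0.01 and -0.03, and no fold is given for the 3p strands, since control pool 3 stood at the floor.

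In miR-485, from the imprinted Dlk1-Dio3 domain, the variable strand was miR-485-3p, at 45.8 and 3.75 in control pools 1 and 2, undetected in control pool 3, and at 41.6, 89.2 and 22.9 in the myopic pools. Its partner miR-485-5p was at 28.2, 29.7 and 27.5 in the control and at 27.3, 35.2 and 27.5 in the myopic pools. The strand pattern was alike in miR-467b and miR-467e, whose 3p strands were detected in control pool 1 alone of the controls, while the 5p strands were steady at -0.10 and 0.14. In miR-99b the scaled change was 1.21 for the 3p strand and -0.10 for the 5p strand. After quantile normalization these were 0.42, which is under 2-fold, and -0.26. The 5p strands of miR-485, miR-467b and miR-467e were at -0.95, -0.81 and -0.61 on that scale.

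**Figure D3:**
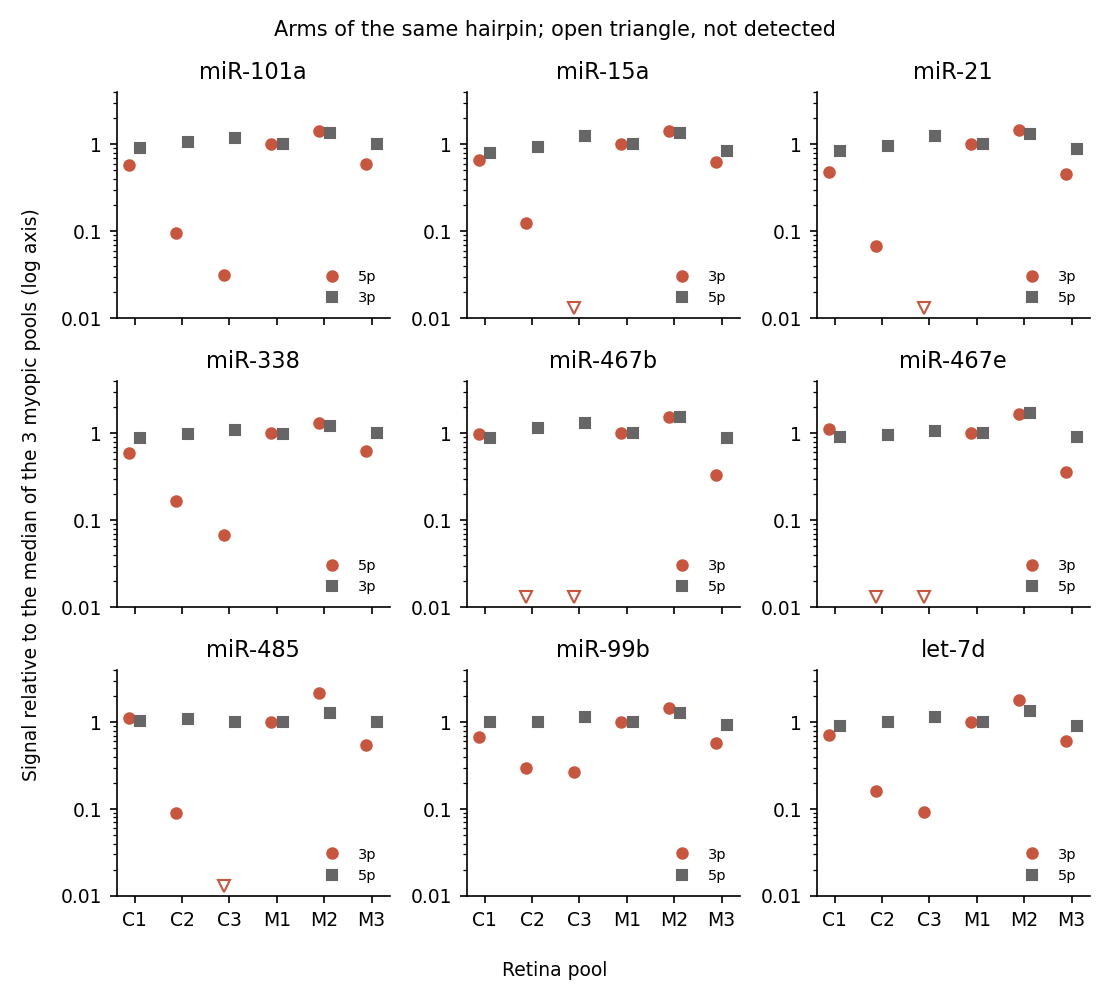
Signal of the arms of 9 hairpins in control (C1 to C3) and myopic (M1 to M3) retina pools, each relative to its own median over the myopic pools (log axis, without scaling between arrays). Red circles are the variable arm and grey squares the steady arm, and open triangles mark pools without detection. In C2 and C3 the red arm was low or undetected while the grey arm stayed near 1.

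Seeds are described next. The 48 variable miRNAs with a sequence had 47 different seeds, and 6 seeds were shared by a variable miRNA and another detected one among the 309 members with an entry, so that seed mates without an entry are not counted. In 0 of these 6 were all members variable, and in 3 a member was steady. In the seed group GGCAGUG, whose members hold back cell division and act in ciliated cells, miR-449c-5p was at 4.03 in control pool 1, undetected in control pools 2 and 3, and at 10.9, 13.3 and 3.56 in the myopic pools. In contrast, miR-34a-5p was at 829, 860 and 993 in the control and 891, 1123 and 865 in the myopic pools, so that its groups overlapped. The scaled changes of miR-449a-5p, miR-34a-5p and miR-34b-5p were 0.03, -0.01 and -0.06. Within the let-7 seed UAUACAA, let-7a-1-3p was at 7.23, 5.68 and 5.26 in the control and 20.7, 48.4 and 7.35 in the myopic pools, while let-7b-3p and let-7f-1-3p had scaled changes of 0.01 and -0.14. All 3 control pools of let-7a-1-3p were alike and below the myopic pools, though control pool 1 (7.23) was just under myopic pool 3 (7.35). Of the miR-30c strands, miR-30c-1-3p had a scaled change of 1.35 and miR-30c-2-3p one of -0.01. After quantile normalization let-7a-1-3p and miR-30c-1-3p were at 0.71 and 0.69, which is under 2-fold. Their seed mates let-7b-3p, let-7f-1-3p and miR-30c-2-3p were at -0.74, -0.98 and -0.53 on that scale. The members named here for their seed were chosen after their values were seen.

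The stem cell seed AAGUGCU was carried by miR-291a-3p, at 37.6 and 6.94 in control pools 1 and 2, undetected in control pool 3, and at 75.2, 128 and 34.3 in the myopic pools. For miR-294-3p the signals were 133, 39.8 and 5.22 in the control and 182, 275 and 124 in the myopic pools. Both followed the same order of pools. The seed mate miR-302b-3p was detected in myopic pool 1 alone. In the pair with the seed AAGGUGC, miR-18b-5p was at 85.2 and 13.9 in control pools 1 and 2 and at 148, 194 and 91.0 in the myopic pools, whereas miR-18a-5p was undetected in control pool 1, at 9.76 and 14.8 in control pools 2 and 3, and at 7.82, 10.6 and 7.70 in the myopic pools. The seed mates were thus missing from different control pools.

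The variable miRNAs also differed in base composition. The longest probe paired with the 3' end of the RefSeq sequence for 302 of the 309 members that had one, and the last 10 bases that it pairs with were compared for every member. Among the last 10 bases, A made up 17.6% in the variable and 21.4% in the steady miRNAs. The letters UGUG were searched on the miRNA strand only, over all bases that the longest probe pairs with. They were present in 32 of the 72 variable miRNAs (44.4%), in 26 of the 276 steady ones (9.42%) and in 68 of all 418 (16.3%). This is a description of a group chosen after its values were seen. Of the 32, 12 belong by name to a large family that has many of its hairpins in an intron of Sfmbt2 and is known from placenta and embryonic stem cells (miR-297, miR-466, miR-467 and miR-669), and 20 do not.

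Of the Sfmbt2 family, 41 names were on the array, 33 were detected and 22 of these (66.7%) were variable, beside 72 of 418 members in all. Its scaled median over the 15 members detected in all 6 pools was 2.02, beside -0.02 for all 329. The median was 0.33 with normexp background correction, the lowest of the scalings tried, where the added 50 shrinks changes of dim miRNAs. There were 0 called members, where 0.226% of all miRNAs tested were called. Without control pool 1, 21 of the 33 were called, where 27.6% of all miRNAs tested were, so that this count depends on 1 pool. The summed signal of the family was 3784, 702 and 401 in control pools 1 to 3 and 4411, 6720 and 2634 in myopic pools 1 to 3. In the array annotation (mm9), 29 detected members match chromosome 2 between 10388586 and 10439867, and 18 of them were variable. The motif was not limited to the family. Within it, UGUG was found in 12 of the 22 variable members (54.5%) and in 3 of the 11 others (27.3%). Outside it, 20 of the 50 variable miRNAs (40%) and 33 of 335 others (9.85%) had the motif.

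Within the family, miR-466h-5p had signals of 244, 51.3 and 11.4 in the control and 321, 469 and 227 in the myopic pools. Control pool 1 stood above myopic pool 3, so that the groups overlapped. The quantile-normalized change was 2.06 (standard error 0.70, adjusted p = 0.134, higher on 3 of 3 slides), and the scaled change was 2.53. For miR-669n the signals were 704, 125 and 72.6 in the control and 741, 1000 and 534 in the myopic pools, with a quantile-normalized change of 1.67. For miR-467c-5p they were 129, 27.8 and 8.45 and then 210, 314 and 132, with a change of 2.08. Outside the family, miR-1187 and both strands of miR-574 carried repeats or lay on hairpins with them, and these 3 were chosen after their values were seen. The signals of miR-1187 were 623, 104 and 44.9 in the control and 648, 890 and 468 in the myopic pools. Those of miR-574-5p were 812, 187 and 95.8 in the control and 875, 1054 and 614 in the myopic pools, and those of miR-574-3p were 217, 9.70 and 3.64 and then 204, 330 and 86.9. Here control pool 1 was within the myopic range in all 3, and the scaled changes of the miR-574 strands were 1.65 and 3.08.

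Other variable miRNAs belong to lists that are not retinal. Of 26 names of a testis cluster on the X chromosome, 4 were detected, and miR-465b-5p was at 84.3 and 8.57 in control pools 1 and 2, undetected in control pool 3, and at 152, 204 and 82.9 in the myopic pools. The summed signal of this cluster was 89.6, 23.6 and 9.13 in the control and 196, 272 and 86.6 in the myopic pools. Of 22 names of the miR-290 to miR-295 and miR-302 clusters, 9 were detected and 3 were variable, with summed signals of 435, 115 and 72.4 in the control and 557, 700 and 312 in the myopic pools. Among 47 detected miRNAs numbered 1000 and above, 12 were variable (25.5%, beside 17.2% of all members), among them miR-1947-5p, miR-1936 and miR-1187. Their part in the difference between the groups was not tested.

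In 2 families of epithelium and mesenchyme some strands varied while others were undetected in the retina. Of 9 names of the miR-200 family on the array, 4 were detected, and miR-200a-5p was at 41.4 in control pool 1, undetected in control pools 2 and 3, and at 84.5, 114 and 40.4 in the myopic pools. The variable miR-429-3p, with the seed of miR-200b-3p, was at 18.1 in control pool 1 and undetected in control pools 2 and 3. It was at 38.8, 57.1 and 8.71 in the myopic pools. The strands miR-200a-3p, miR-200c-3p and miR-141-3p, which repress the transition of epithelium to mesenchyme, were undetected in all 6 retina pools. On the sclera arrays miR-200a-3p was detected in all 6 pools with signals up to 215, while miR-200a-5p was detected in none. The summed signal of the family was 73.1, 0 and 7.78 in the control and 168, 247 and 65.4 in the myopic retina pools. In the same way, miR-214-5p was at 137 and 23.2 in control pools 1 and 2, undetected in control pool 3, and at 221, 305 and 154 in the myopic pools. Its partner miR-214-3p was undetected in all 6 retina pools and detected in all 6 sclera pools (like miR-200c-3p, named after its values were seen). More generally, 50 of the 72 variable miRNAs were detected on no sclera array, beside 25 of the 276 steady ones. The steady miRNAs were chosen for detection in all 6 retina pools and had the higher median signal in each. The 2 shares thus depend on how the sets were chosen.

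Markers of tissues around the retina also differed between the control pools, and in the opposite order. For miR-184-3p, a miRNA of corneal and lens epithelium, the signals were 94.0, 1479 and 5342 in control pools 1 to 3 and 656, 720 and 546 in myopic pools 1 to 3. The myopic pools were alike and lay between the control pools. The quantile-normalized change was -0.59 (standard error 1.37, adjusted p = 0.887 by limma). For miR-31-5p, known from skin epithelium and chosen after its values were seen, the signals were 39.7, 171 and 482 in the control and 95.7, 120 and 80.9 in the myopic pools. The epithelial miR-205-5p and miR-200b-3p were detected in control pool 3 alone, at 12.2 and 7.78. In these 4 miRNAs control pool 3 was the highest of the 6 pools. The other 3 detected miRNAs of the miR-200 family (miR-200a-5p, miR-429-3p and miR-141-5p) were undetected in control pool 3.

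The mesenchymal and scleral miR-199a-3p was at 36.8, 49.7 and 197 in the control and at 42.5, 60.9 and 44.3 in the myopic pools, and miR-199b-5p at 19.0, 30.7 and 169 and at 28.3, 40.2 and 22.5. On the sclera arrays miR-199a-3p reached 3479 to 10824. The muscle miRNA miR-1a-3p was at 42.9, 103 and 181 in the control and at 70.9, 90.2 and 60.4 in the myopic pools, and miR-143-3p of smooth muscle at 57.4, 67.1 and 125 and at 53.5, 75.1 and 59.2. In all 4, control pool 3 stood above the other 5 pools. The same was true of miR-223-3p (41.6 in control pool 3, 17.9 to 23.3 elsewhere) and miR-142-3p (27.9, 11.4 to 18.3 elsewhere) of leukocytes, the latter chosen after its values were seen. An exception was the skeletal muscle miRNA miR-206-3p, which went with the variable group at 102, 28.6 and 14.4 in the control and 128, 254 and 94.5 in the myopic pools.

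By list, control pool 3 was the highest control pool for 2 of 2 detected smooth muscle miRNAs, 3 of 4 mesenchymal and 3 of 4 striated muscle. The same held for 4 of 6 leukocyte, 2 of 3 surface and lens epithelial and 1 of 4 miR-200 family miRNAs. Control pool 1 was the highest for the other 3 of that family. No share over all members is given beside this tally, so that it does not set these lists apart from other miRNAs. The steady miRNAs also had their highest median signal among the control pools in control pool 3 (167, 185 and 206 in control pools 1 to 3). The summed signals in control pools 1 to 3 and then myopic pools 1 to 3 were 64.8, 75.1, 137, 53.5, 75.1 and 59.2 for smooth muscle, of which miR-143-3p had the brightest signal. They were 106, 1493, 5368, 666, 736 and 557 for surface and lens epithelium, nearly all of it miR-184-3p. For leukocytes they were 167, 195, 208, 165, 249 and 164, with miR-146b-5p the brightest in 5 pools. For the mesenchymal list they were 201, 114, 405, 301, 424 and 231, with the variable miR-214-5p the brightest in 4 pools, and for striated muscle 251, 315, 498, 355, 534 and 287, with miR-206-3p the brightest in 4. The scaled medians of the smooth muscle, mesenchymal and striated muscle members detected in all 6 pools (1, 3 and 4 miRNAs) were -0.45, -0.66 and -0.29. These values rest largely on control pool 3. Without that pool the quantile-normalized change of miR-199a-3p went from -1.14 to -0.36, that of miR-143-3p from -0.96 to -0.57 and that of miR-184-3p from -0.59 to 0.64. In pools of whole tissue, fewer cells of a type and less RNA per cell cannot be told apart. The part of these markers in the differences between the groups was not tested.

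**Figure D4:**
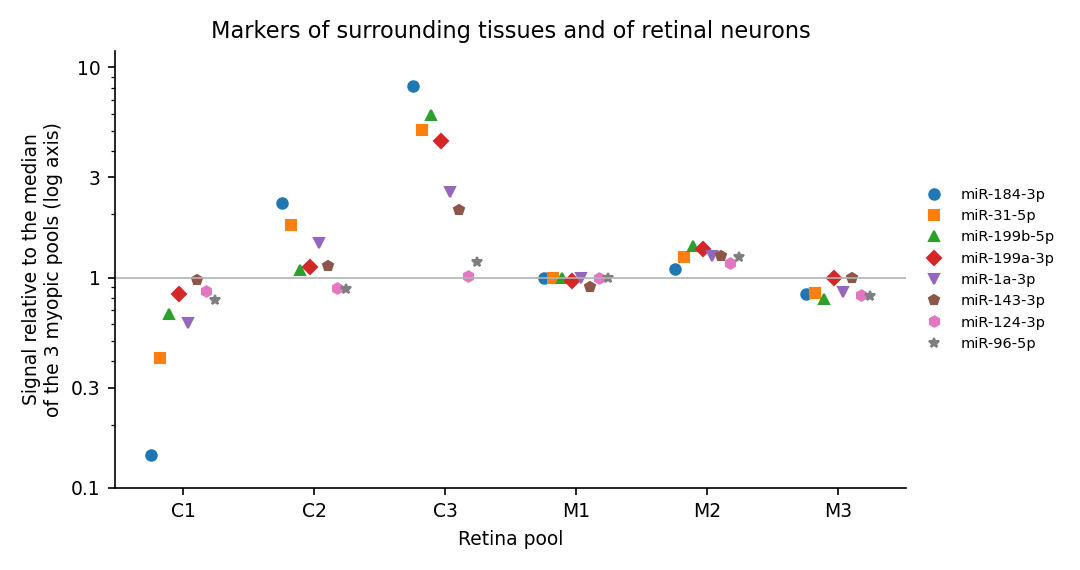
Signals of miRNAs of surface epithelium (miR-184-3p, miR-31-5p), mesenchyme (miR-199b-5p, miR-199a-3p), striated and smooth muscle (miR-1a-3p, miR-143-3p) and retinal neurons (miR-124-3p, miR-96-5p) in control (C1 to C3) and myopic (M1 to M3) retina pools, each relative to its median over the myopic pools (log axis). The first 6 miRNAs were highest in C3, where miR-184-3p had a signal of 5342 against 94.0 in C1.

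The 1 call of the comparison, miR-145-5p of smooth muscle and pericytes, rested on signals near the limit of detection. Its total signal was 7.38, 8.01 and 11.6 in control pools 1 to 3, and it was undetected in the 3 myopic pools. The probe behind it, however, gave 5.25, 7.46 and 6.29 in the myopic pools, each under 3 times its error of 1.99, 3.05 and 2.26. In the control pools the errors were 2.43, 2.44 and 2.51, so that control pool 1 passed at 3.03 times its error and myopic pool 3 missed at 2.78 times. The scaled log2 signal of this probe was 2.77 ± 0.31 in the control and 2.17 ± 0.19 in the myopic pools (SD, n = 3), a difference of -0.60 with p = 0.1 in a two-sided exact permutation test over pools, the smallest value possible (p = 0.25 within pairs, also the smallest). The groups were not separate before scaling, since myopic pool 2 was above control pool 1. After scaling, the control mean of this probe was 1.52-fold the myopic mean, which rests on undetected myopic signals and is no minimum. The quantile-normalized change of -3.85 (standard error 0.37, adjusted p = 9.2e-04 by limma, lower on 3 of 3 slides) has a size set by the floor. When undetected values were instead raised to the smallest signal that an array detected, the miRNA was not called. It was also not called with only the 6 retina arrays in the fit, with normexp background correction or with processed spot signals. The normexp correction adds 50 to every signal, which shrinks changes of dim miRNAs, so that its outcome here is no test. The other probe of this miRNA was undetected in all 6 pools, and the 3p strand was undetected too.

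**Figure D5:**
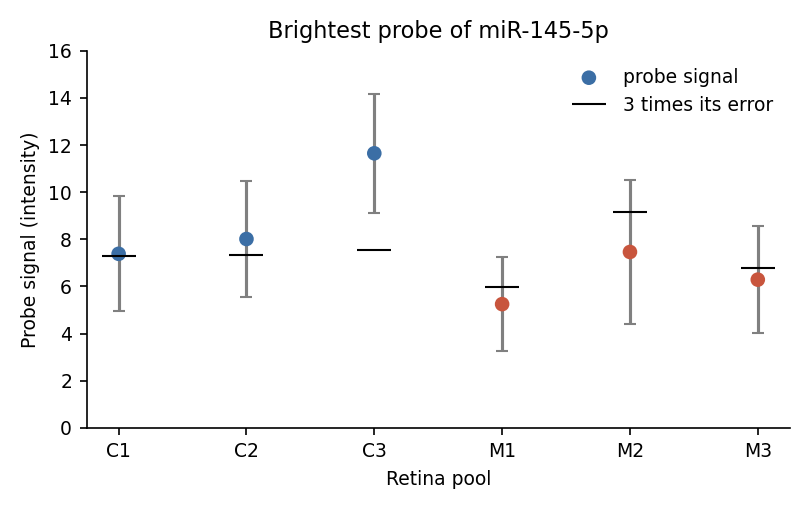
Signal of the brightest probe of miR-145-5p (intensity, points, with the software's error as bars) in control (C1 to C3, blue) and myopic (M1 to M3, red) retina pools. Black dashes mark 3 times the error, above which a probe counts as detected, and the control pools lie above their dash and the myopic pools below it.

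Among the lower miRNAs with the smallest p-values, apart from miR-145-5p, the size and in some the sign of the change depended on the scale. For miR-496-3p the signals were 20.8, 15.3 and 12.1 in the control and 18.7, 27.6 and 12.4 in the myopic pools, which overlap. Its quantile-normalized change was -0.84 (standard error 0.14, adjusted p = 0.0412 by limma), which is under 2-fold, and the scaled change was 0.14. In the authors' values it was called, at -1.04 (adjusted p = 0.0168 by limma). For miR-666-3p, of the Dlk1-Dio3 domain, the signals were 5.71, 4.65 and 4.81 in the control and 7.80, 11.3 and 4.74 in the myopic pools, with changes of -0.77 after quantile normalization and 0.46 after scaling. For miR-216b-5p, a dim miRNA, the signals were 5.67, 6.06 and 6.63 in the control and 5.91, 8.68 and 5.65 in the myopic pools, with changes of -1.35 and 0.01 on the same scales. For miR-542-5p they were 4.24, 5.74 and 10.2 in the control and 3.53, 5.68 and 3.68 in the myopic pools, with changes of -1.91 and -0.69. The leukocyte miRNA miR-146a-5p, a brake on inflammatory signaling, was at 12.1, 9.48 and 13.5 in the control and 8.84, 13.3 and 9.61 in the myopic pools, with changes of -1.35 and -0.26. Every myopic pool lay below every control pool after scaling in miR-145-5p, miR-194-5p, miR-2135 and miR-99b-5p, of which the last 3 were chosen after their values were seen.

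Among 23 miRNAs undetected in all control pools, 4 had a bound of at least 1 on their fold. These were detected in myopic pools 1 and 2 and undetected in myopic pool 3. The signals in myopic pools 1 and 2 were 18.5 and 36.6 for miR-871-5p of the testis cluster, 21.2 and 36.5 for miR-2136, 12.7 and 24.8 for miR-18a-3p and 8.58 and 12.8 for miR-302a-3p. For this bound an undetected control pool was set at the lowest signal its array detected, or at its probe signal if higher. Myopic pool 3 was kept at the floor. The bound, myopic over control, was 1.75-fold for miR-871-5p and for miR-2136 and 1.45-fold for miR-18a-3p. For miR-302a-3p the bound was 1.00-fold, which sets no size. These miRNAs are members through the myopic pools alone and were picked by their bound. Their direction was thus fixed by the choice and is no test. Of these 4, 0 were called (adjusted p = 0.134 by limma for each), where 1 of all 443 miRNAs tested was (0.226%). For the other 19 no fold is given. The last 3 of these miRNAs were chosen after their values were seen.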

How the data were processed

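Per the file headers, the deposited intensity values were made with Agilent Feature Extraction 11.0.1.1, which subtracts background per spot and adds up the detected probes of a miRNA, and they were not normalized between arrays. The deposited log2 values were quantile-normalized by the authors in Partek Genomics Suite, and their median is 5.63 on each array. Absent features and outliers were removed by the authors, and the limits used for this are unknown.

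Total gene signals of 696 mouse names on 12 arrays were set to a floor of 0.5, quantile-normalized and taken to log2. A fit of the 4 groups was made with limma 3.58.1 in R 4.3.3, with Benjamini-Hochberg adjustment across 443 miRNAs, those that at least 1 array detected. Tables and figures were made in Python 3.11.15 with numpy 2.4.6, pandas 2.3.3 and matplotlib 3.10.9. The fit was also run on simulated data in which miRNAs varied independently, unlike in these pools, where the main axis held most of the variance.

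Arrays with the same pool number share a slide, and position on the slide follows the group, so that the 2 cannot be told apart. By the labels, arrays of the same number in the control and myopic groups are fellow eyes of the same mice. Correlations of their deviations from the group means were 0.38, -0.46 and 0.59 in the retina over 246 miRNAs.

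Members and lists were chosen with earlier results of these data known. Of the miRNAs named, 108 follow a rule (calls, smallest p, detection in 1 group, brightest, lists, other arms) and 33 were added after their values were seen.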

Additional observations from a re-analysis of the deposited data

Results flagged for a closer look

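For miR-145-5p, a miRNA of smooth muscle, the change in the retina minus the change in the sclera was -3.56 (standard error 0.52, adjusted p = 0.030 by limma), which was 1 call among 443 miRNAs (0.226%). With a replicate block the adjusted p was 0.067. The value rests on myopic retina pools without detection, which stand at the floor. Its cause was not tested.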

How the results depend on the processing

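The number of miRNAs called between the myopic and control retina, 1 with the settings used in the text, was 2 in the authors' values. It was 0 when the floor was the smallest signal an array detected, with normexp background correction and with processed spot signals. It was also 0 with only miRNAs that all compared arrays detected, and with only the 6 retina arrays. The 50 that normexp adds to every signal shrinks changes of dim miRNAs. The number called was 146 with array weights, whose estimate did not converge. Leaving out single arrays gave 1 to 122 calls, with 122 without control pool 1 and 13 without myopic pool 3. Of the alternatives added after the data were seen, leaving out control pools 2 and 3 gave 5 (1 control pool is left, and the spread comes from the other groups), and scaling without control pool 1 gave 72.

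For the retina change against the sclera change, 1 miRNA was called with the settings used. It was 0 with the authors' values, the raised floor, normexp, processed spot signals, only miRNAs detected throughout, or a replicate block, 156 with array weights, and 0 to 112 when single arrays were left out (112 without control pool 1). The replicate block changed no other call.

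The median log2 change of miRNAs detected in all 6 pools, -0.22, was -0.0171 with 75th percentile scaling over miRNAs detected on all arrays, -0.37 with that percentile over all names, 0.0895 without normalization and -0.0524 with normexp. The difference of 29.7 in miRNAs detected was 25 to 37.7 when single arrays were left out, and 30 with a fixed limit (p = 0.2, exact permutation test).

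For mmu-miR-31-5p the change of -0.99 became 1.23 with control pools 2 and 3 left out. The call of mmu-miR-145-5p was made in 20 of 24 alternatives, with adjusted p from 6.4e-08 to 0.715. Why the settings differ was not tested.

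There were 3 pools a group, the control eyes were fellow eyes of the treated mice, and cell types were not separated. Low total signals are limited by background, since the floor sets the size of a change for undetected miRNAs.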
